A study of Bos taurus with 38 samples.

Results

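A set of 77 genes in the rumen papillae of growing bulls moved the same way between the end of Period 1 and the end of Period 2 whichever diet had been fed, and is described here library by library. Of these genes, 26 were higher in Period 2 and 51 were lower, out of 12543 genes listed in both periods. Members were selected on group means of log2(CPM + 1). CPM, the deposited value, is a gene's read count scaled by a library size that had been adjusted by edgeR's TMM factor. The values of a library therefore do not sum to a fixed total. The change from Period 1 to Period 2 had to be at least 0.4 in the same direction in both diets. The difference between the diets in Period 1 had to stay under 0.4, the mean value over the 38 libraries had to stay under 500 CPM, and 10 listed identifiers were left out.

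The libraries came from purebred Holstein Friesian bulls, all given a single ration of concentrate and grass silage. ADLIB bulls ate to appetite in both periods, and RES bulls had their feed held back for the 125 days of Period 1. In Period 2, given as 55 days, RES bulls were returned to feeding to appetite after a transition in which their feed was built up. By the study's methods, the feeding to appetite that followed this transition lasted less than 55 days. There were 9 ADLIB and 9 RES libraries from day 125, at the end of Period 1, and 10 ADLIB and 10 RES libraries from day 180, at the end of Period 2. Each bull was sampled at slaughter, so the periods hold different animals, and the bulls of Period 2 were also older. The tissue field reads rumen epithelium while the extraction text of the same labels speaks of frozen muscle. By the study's methods, the RNA was extracted from frozen papillae of the rumen. No identifier could be paired with a gene symbol, so neither tissue could be checked against its marker genes.

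Rumen papillae are the finger-like folds of the rumen wall, covered by a stratified squamous epithelium that takes up the short-chain fatty acids made by microbial fermentation. Papillae are known to grow and to shrink with feed intake, and the rumen is among the organs whose mass follows feeding level most closely. Re-alimentation is the return of restricted animals to full feed, when their growth is often faster than that of animals never restricted. In these bulls, age, days on the ration and date of slaughter all run with period and cannot be told apart. In RES bulls the return to feeding to appetite runs with period as well. The 2 periods were also scaled separately, but with one TMM scaling over the 38 libraries the median shifts of the higher and lower members were 0.50 and -0.52 in ADLIB and 0.59 and -0.69 in RES, as with the deposited values.

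Sequencing depth, as reads on listed genes, ranged from 5948453 to 11957654 per library. One read was worth between 0.0744 and 0.213 CPM, so a value built on 3 reads lay between 0.223 and 0.640 CPM, and these limits cover counting error only. The least covered member had 475 reads over the 38 libraries. The papillae are mixed tissue, so for every change given here fewer cells of a type and less RNA per cell cannot be told apart.

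The 2 shift thresholds alone took in 43 higher and 69 lower genes. Of the 43, 12 were lost to the Period 1 difference between the diets, 4 to the level limit and 1 to the list of identifiers left out. Of the 69, 17 were lost to the diet difference, 0 to the level limit and 1 to the list. By the smaller of its 2 shifts, the 3 higher members nearest to the threshold stood at 0.401 to 0.403 and the 3 genes just outside at 0.389 to 0.393. The 3 nearest lower members stood at up to 0.4027 in size, and the 3 genes just outside at 0.3982 to 0.3993.

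**Figure D1:**
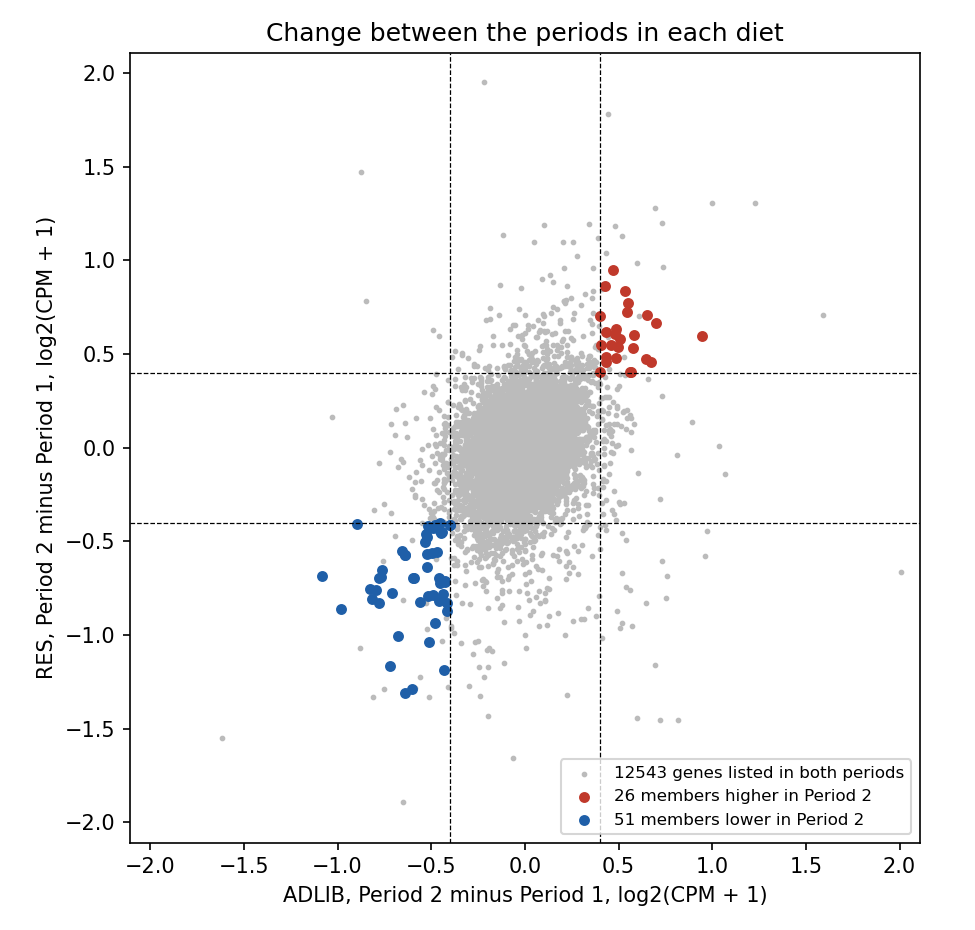
Each point is a gene, with its change from Period 1 to Period 2 in ADLIB bulls on the horizontal axis and in RES bulls on the vertical axis, both in log2(CPM + 1); dashed lines mark 0.4 in size. The 26 higher members fill the upper right corner and the 51 lower members the lower left, while most of the 12543 genes lie near 0 on both axes.

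The values in this paragraph chose the members and are given as a description, with no test. The higher members rose by 0.40 to 0.95 in ADLIB bulls, with a median of 0.50, and by 0.40 to 0.95 in RES bulls, with a median of 0.59. The lower members had ADLIB shifts from -1.08 to -0.40, with a median of -0.52, and RES shifts from -1.31 to -0.40, with a median of -0.69. Over all 12543 genes the median shift was -0.0026 in ADLIB and 0.0042 in RES. The RES shift was the larger in size in 48 of 77 members, made up of 18 of 26 higher and 30 of 51 lower members. Both shifts reached 0.5 in 9 higher and 25 lower members.

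The 4 members shown in full were the 2 in each direction with the largest value of the smaller shift. ENSBTAG00000000061 rose between the periods in both diets. In ADLIB bulls its lowest, median and highest values were 8.54, 13.2 and 24.1 CPM in Period 1 (mean 15.0 ± 5.55, SD, n = 9) and 13.4, 26.3 and 43.5 CPM in Period 2 (25.8 ± 11.4, SD, n = 10). In RES bulls they were 10.3, 12.8 and 17.9 CPM in Period 1 (13.6 ± 2.66, SD, n = 9) and 10.4, 24.6 and 27.7 CPM in Period 2 (22.7 ± 5.62, SD, n = 10). The periods overlapped in both diets: 6 of 10 ADLIB and 8 of 10 RES libraries of Period 2 lay above every Period 1 library of their diet, and the RES libraries of Period 2 within the Period 1 range were replicates 8 and 9, at 10.4 and 17.2 CPM. The shifts were 0.70 in ADLIB and 0.67 in RES, or 1.62-fold and 1.59-fold on the CPM + 1 scale.

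ENSBTAG00000013641 was the other higher member, at more reads. In ADLIB bulls its lowest, median and highest values were 35.1, 43.5 and 92.1 CPM in Period 1 (mean 50.9 ± 17.4, SD, n = 9) and 38.6, 83.9 and 154 CPM in Period 2 (83.2 ± 33.8, SD, n = 10). In RES bulls they were 28.2, 42.2 and 51.6 CPM in Period 1 (40.9 ± 7.26, SD, n = 9) and 36.5, 68.5 and 114 CPM in Period 2 (71.6 ± 28.5, SD, n = 10). The Period 1 RES libraries lay close together, whereas those of Period 2 ran from within the Period 1 range to more than its top, and only 3 of 10 ADLIB and 6 of 10 RES libraries of Period 2 lay above all of Period 1. The shifts were 0.65 and 0.71, or 1.57-fold and 1.63-fold.

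ENSBTAG00000012918 fell between the periods by the largest smaller shift of all members. In ADLIB bulls its lowest, median and highest values were 57.0, 156 and 318 CPM in Period 1 (mean 158 ± 88.8, SD, n = 9) and 26.0, 62.5 and 203 CPM in Period 2 (84.8 ± 59.0, SD, n = 10). In RES bulls they were 72.2, 105 and 270 CPM in Period 1 (141 ± 76.2, SD, n = 9) and 16.7, 69.4 and 153 CPM in Period 2 (80.2 ± 43.9, SD, n = 10). Both diets showed the same picture, with 3 of 9 Period 1 libraries above all of Period 2 and 5 of 10 Period 2 libraries below all of Period 1. The shifts were -0.98 in ADLIB and -0.86 in RES, so the levels in Period 2 were 1.97-fold and 1.82-fold lower on the CPM + 1 scale.

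ENSBTAG00000016026 was a lower member at few reads. In ADLIB bulls its lowest, median and highest values were 0.582, 3.11 and 18.9 CPM in Period 1 (mean 5.97 ± 7.11, SD, n = 9) and 0.819, 1.53 and 3.86 CPM in Period 2 (1.85 ± 1.01, SD, n = 10). In RES bulls they were 2.58, 4.27 and 7.25 CPM in Period 1 (4.60 ± 1.45, SD, n = 9) and 1.30, 1.86 and 4.78 CPM in Period 2 (2.22 ± 1.04, SD, n = 10). Replicates 1 and 8 of ADLIB Period 1 stood far above the rest of their group, at 18.9 and 17.8 CPM, while the other libraries of that group reached no more than 4.67 CPM. The shift was -0.81 in both diets, but without these 2 libraries the ADLIB shift was -0.24, short of the threshold, and the Period 1 difference between the diets was 0.76, past its limit. With 1 library left out at a time the ADLIB shift ran from -1.01 to -0.56. Below all Period 1 libraries of their diet were 0 of 10 ADLIB and 8 of 10 RES libraries of Period 2.

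**Figure D2:**
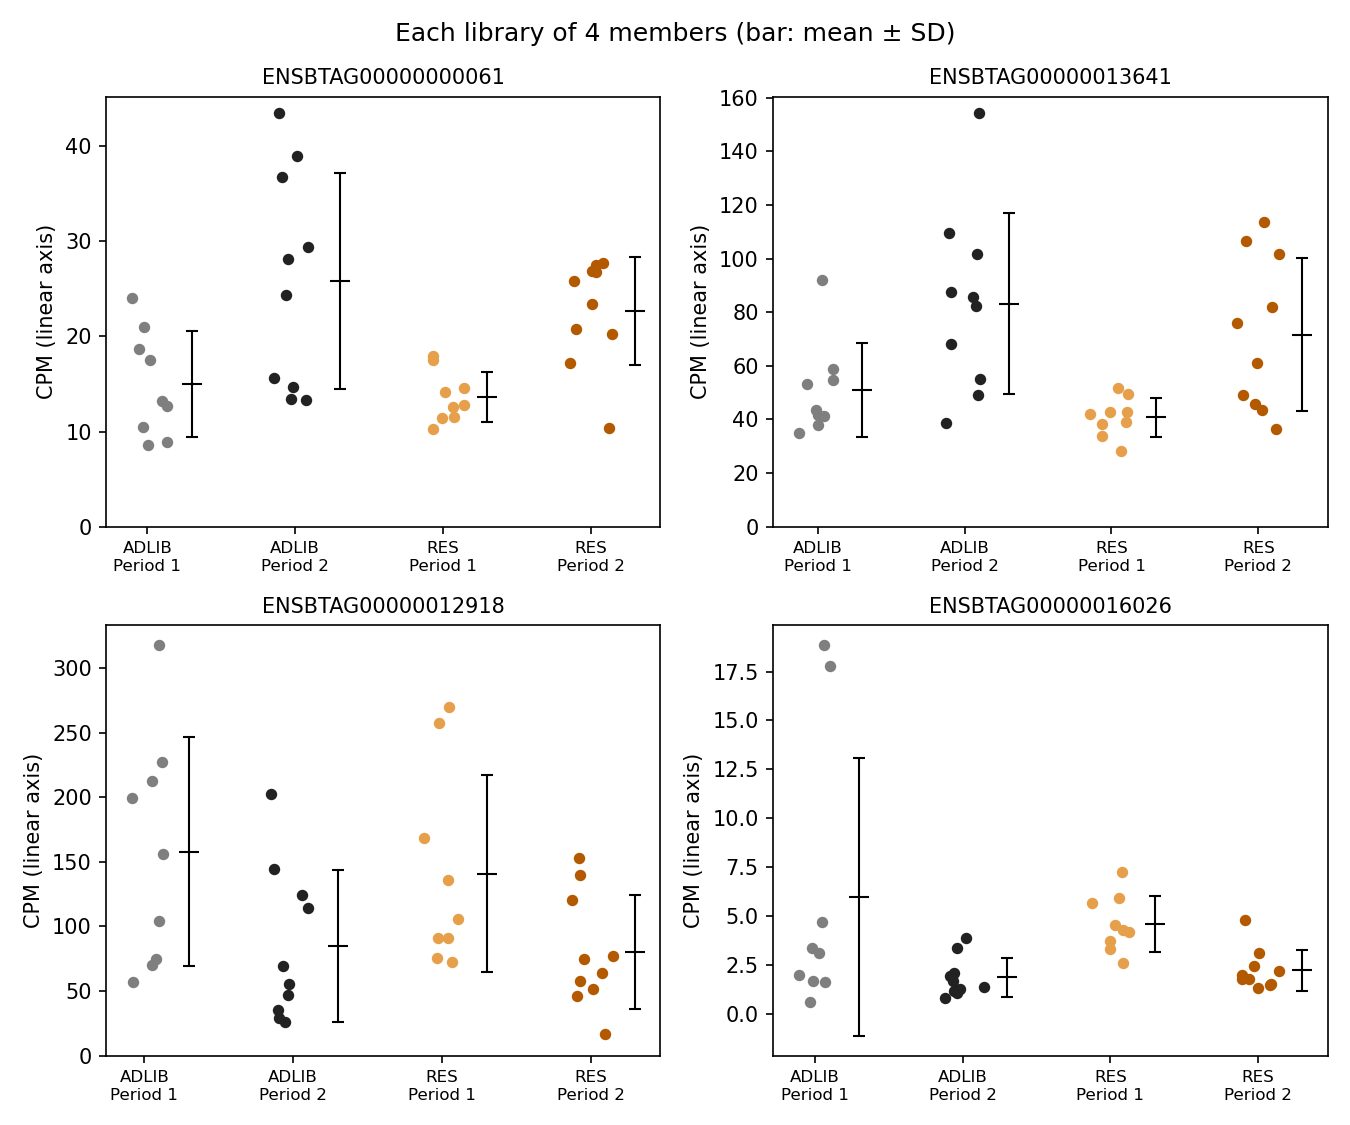
CPM on a linear axis for the 4 members, with each point a library, its group on the horizontal axis and the bar giving the mean ± SD (9, 10, 9 and 10 libraries). The periods overlap in every panel, and for ENSBTAG00000016026 the ADLIB Period 1 mean is set apart from the median by libraries at 18.9 and 17.8 CPM.

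The other members can be given only by their ranges, and a few at the ends of those ranges show how unlike they were. The largest fall in RES bulls, -1.31, belonged to a gene with 16.2 to 49.3 CPM in Period 1 and 4.12 to 19.3 CPM in Period 2, and its fall in ADLIB was -0.64. In that gene ADLIB replicate 9 of Period 2 was at 46.5 CPM, above all ADLIB libraries of Period 1, the highest of which had 34.5 CPM. The largest fall in ADLIB bulls, -1.08, went with ranges of 3.33 to 94.2 CPM in Period 1 and 3.85 to 71.9 CPM in Period 2, so the groups overlapped over most of their span, around medians of 39.1 and 21.4 CPM.

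The largest rise in ADLIB bulls, 0.95, took a gene from 0.282 to 5.25 CPM in Period 1 to 2.12 to 10.7 CPM in Period 2. The largest rise in RES bulls, also 0.95, was in the higher member whose bulls differed most from one another, with 0.320 to 10.0 CPM in Period 1 and 0.40 to 53.5 CPM in Period 2. Its median rose from 1.21 to 4.10 CPM. The steadiest higher member had 39.4 to 68.5 CPM in RES Period 1 and 58.0 to 95.8 CPM in RES Period 2, and its shifts of 0.40 and 0.40 were just past the threshold. A single lower member was at 0 reads in any library: 3 libraries of Period 2 had none, while the highest library of ADLIB Period 2 had 46.6 CPM. Its shifts were -0.78 in ADLIB and -0.83 in RES. Its median went from 21.4 to 15.1 CPM in ADLIB, but only from 25.7 to 25.2 CPM in RES. The part of the libraries at 0 in these shifts was not tested.

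**Figure D3:**
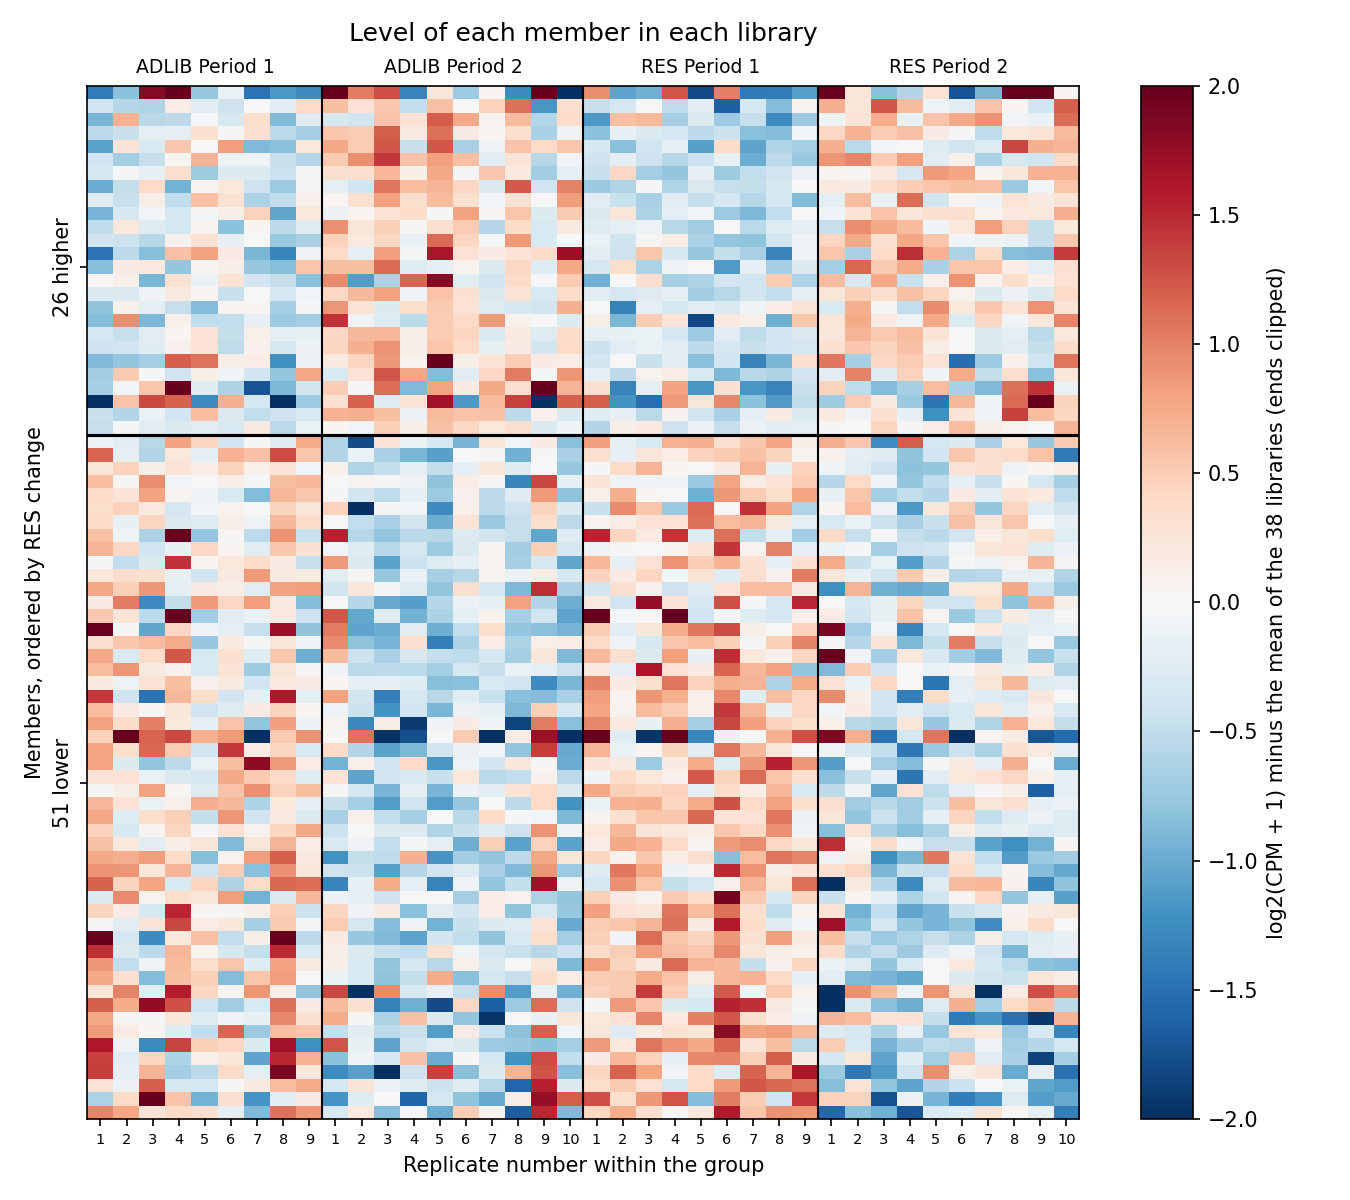
Each row is a member, each column a library by group and replicate number, and the colour is log2(CPM + 1) minus the mean over the 38 libraries, clipped at 2 in size. The 26 higher members turn from blue to red and the 51 lower members from red to blue between the periods in both diets, with ADLIB Period 2 replicate 9 showing much of the Period 1 pattern.

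Members tended to have few reads. Their mean values ran from 2.68 to 178 CPM for the higher members, with a median of 9.37 CPM, and from 1.35 to 298 CPM for the lower members, with a median of 10.2 CPM. CPM is not divided by gene length, so these are scaled read counts and not an order of transcript abundance. Under 10 CPM were 39 of 77 members, against 4042 of 12543 listed genes, whose median was 20.2 CPM.

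Membership had required the diets to differ by less than 0.4 in Period 1, and within that limit the members leaned to one side. RES was below ADLIB in 21 of 26 higher members, with a median difference of -0.17, and above ADLIB in 42 of 51 lower members, with a median of 0.22. These differences share their Period 1 libraries with the shifts that chose the members, so they are not separate evidence. In the limma fit of Period 1, 0 of 77 members were called at an adjusted p under 0.05, where 0.00792% of all genes tested were called. At the end of Period 2 the differences were small in both directions, with a median of -0.05 (from -0.55 to 0.22) for the higher members and 0.07 (from -0.47 to 0.47) for the lower members, and 70 of 77 were under 0.4 in size.

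The Period 2 difference between the diets equals the Period 1 difference plus the RES shift minus the ADLIB shift, and all of these entered the selection. Of the 76 members that passed the filter on low values there, 0 were called by limma, edgeR's quasi-likelihood test or DESeq2, where limma called 0% of all genes. At an unadjusted p under 0.05, 2 of 76 members passed in limma, both of them lower members, against 4.82% of all genes. The lowest adjusted p of a member (limma, Benjamini-Hochberg) was 0.920. The test of a different change over time in the 2 diets is built from the same means. It called 0 of 77 members, against 0.0239% of all genes, and 1 of 77 at an unadjusted p under 0.05, against 4.78%.

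The contrasts over time were part of the selection, so the next counts are a description. In RES bulls limma called 7 of 26 higher and 14 of 51 lower members at an adjusted p under 0.05, beside 0.822% of all genes called higher and 0.806% called lower. With the digit of the library identifier in the fit, described next, 9 members were past that threshold, beside 0.822% of all genes in both directions together. In ADLIB bulls limma called 0 of 77 members and 0% of all genes, edgeR's quasi-likelihood test called 0 members, and DESeq2 called 0 members and 1 gene in all. At an unadjusted p under 0.05 there were 45 members in ADLIB, beside 5.73% of all genes. The periods overlapped in every member in both diets, so 0 of 77 were free of overlap, beside backgrounds of 0% higher and 0% lower in ADLIB and 0.0638% higher and 0.0797% lower in RES.

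The first character of a library's identifier was 1, 2, 3 or 4, which the sources leave unexplained, and the libraries with digit 1 were the shallowest. The selection made no direct use of this digit, and it was tested within groups. The digits were spread unevenly, with digit 1 in 1 ADLIB and 4 RES libraries of Period 1. Genes that depend on the digit could thus enter through the group means, so the test is not free of the selection. In a moderated F test over all genes 0 of 77 members depended on the digit at an adjusted p under 0.05 in limma and in edgeR's quasi-likelihood test, beside 0.207% of all genes in limma. At an unadjusted p under 0.05, 9 of 77 members passed in limma, beside 5.55% of all genes, and 11 of 77 in edgeR's test, beside 5.49%. DESeq2 called 1 member at an adjusted p under 0.05, beside 0.247% of all genes.

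The shifts within each digit are given as a description, since the same libraries chose the members and most subsets of them must keep the direction. In ADLIB bulls 22 to 24 of 26 higher members were up and 39 to 49 of 51 lower members were down, whichever digit was looked at. In RES bulls these counts ran from 19 to 25 and from 44 to 47. The median shift of the higher members within a digit ran from 0.35 to 0.67 in ADLIB and from 0.41 to 0.73 in RES, and that of the lower members from -1.04 to -0.24 in ADLIB and from -0.69 to -0.46 in RES. A digit held only 1 to 4 libraries of a group. With the digit fitted beside the group means, the rule gave 21 higher and 50 lower genes. These held 19 of 26 higher and 36 of 51 lower members.

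The spread between bulls fed alike is also a description, because a threshold on differences of group means favours genes that vary more between bulls. The pooled SD within groups, on the log2 scale, had a median of 0.48 for the higher and 0.59 for the lower members, against 0.26 for all listed genes. Every one of the 77 members lay above that all-gene median, the lowest at 0.257 against 0.256. Members also had fewer reads than most genes, as given above, and the part of read depth in this spread was not tested. The smaller shift reached 1 within-group SD in 13 of 26 higher and 15 of 51 lower members. In Period 1 the SD was larger in ADLIB than in RES bulls in 52 of 77 members, or 67.5%, against 54.5% of all genes, and in Period 2 in 43 of 77, or 55.8%, against 57.8%.

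Averaging log2(CPM + 1) over the members of a direction gave 2 values per library. For the higher members, the lowest, median and highest library stood at 3.08, 3.66 and 4.02 in ADLIB Period 1 and at 3.65, 4.11 and 4.57 in ADLIB Period 2. In RES they stood at 3.21, 3.46 and 3.66 in Period 1 and at 3.79, 4.06 and 4.34 in Period 2. The RES periods were apart and the ADLIB periods overlapped.

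For the lower members, the lowest, median and highest library stood at 3.58, 3.88 and 4.40 in ADLIB Period 1 and at 3.11, 3.29 and 4.07 in ADLIB Period 2. In RES they stood at 3.92, 4.10 and 4.51 in Period 1 and at 3.17, 3.44 and 3.63 in Period 2. Again the RES periods were apart, as the choice of members favours. The SD between libraries was 0.29 and 0.31 in the 2 ADLIB groups and 0.16 and 0.17 in the 2 RES groups. For the higher members it was 0.31 and 0.28 in ADLIB against 0.17 and 0.16 in RES. Gene by gene over all listed genes, the median SD was 0.24 and 0.27 in ADLIB and 0.23 and 0.25 in RES. The libraries behind these averages also chose the members, so the SDs of the averages are a description of the members only.

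**Figure D4:**
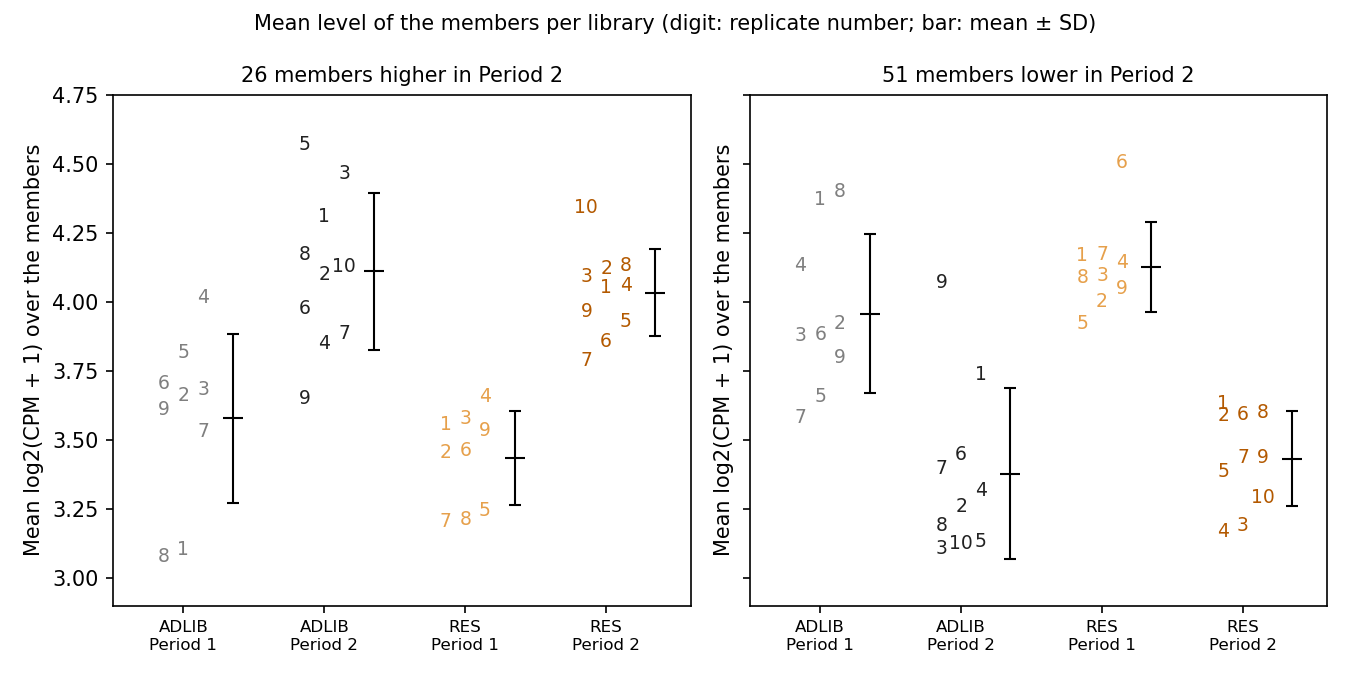
Mean log2(CPM + 1) over the 26 higher members (left) and the 51 lower members (right), with each library drawn as its replicate number and the bar giving the mean ± SD of its group. RES libraries of Period 1 and Period 2 do not overlap in either panel, while ADLIB Period 2 replicate 9 lies among the ADLIB Period 1 libraries and ADLIB Period 1 replicates 1 and 8 lie at the far end of their group.

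Single ADLIB libraries stood out. The counts that follow are a description, since the same libraries set the period means that chose the members. Counting, for each library, the members on its own period's side of the midpoint between the 2 period means of its diet, ADLIB Period 1 replicates 1 and 8 had 73 and 74 of 77. Replicates 5 and 7 of the same group had 38 and 39. ADLIB Period 2 replicate 9 had 20 of 77, so 57 members were on the Period 1 side. RES libraries had 52 to 68 in Period 1 and 45 to 71 in Period 2.

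Membership leaned on these libraries. Without ADLIB Period 1 replicate 1 the same rule gave 17 higher and 39 lower genes, of which 16 and 34 were members, and without replicate 8 it gave 17 and 40, of which 16 and 36 were members. Without ADLIB Period 2 replicate 9 it gave 44 higher and 63 lower genes, which held 25 and 49 of the members, and without ADLIB Period 1 replicate 4 it gave 42 and 46. Leaving replicates 1 and 8 out together, an alternative chosen after seeing the data, left 14 higher and 36 lower genes, of which 12 and 28 were members. The median ADLIB shift of the 77 members was then 0.40 for the higher and -0.44 for the lower ones. Under every removal of 1 library, 10 of 26 higher and 10 of 51 lower members stayed within the rule.

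Members of a direction were next compared by how they varied within groups. Genes whose group means were moved by the same libraries share those deviations, so part of any likeness comes with the selection. Each member was taken as its deviation from the group mean in the 38 libraries, and pairs were described by Pearson's r with no p, since all pairs share the same libraries. The median r was 0.17 over 325 pairs of higher members and 0.14 over 1275 pairs of lower members, against -0.0040 over all pairs of listed genes. Between a higher and a lower member it was -0.13 over 1326 pairs. An r above 0.5 was found in 9.85% of higher pairs, 8.63% of lower pairs and 0.905% of mixed pairs, against 2.30% of all pairs of genes.

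Average linkage parted at r = 0.5 gave 7 blocks of at least 3 members, holding 36 of the 77, and 0 blocks held both directions. The largest had 8 lower members, among them ENSBTAG00000012918, with a median r of 0.61 and mean values of 17.7 to 298 CPM. A block of 6 higher members with ENSBTAG00000013641 had a median r of 0.71, and its closest pair reached 0.949. The block of ENSBTAG00000016026 had 5 lower members and a median r of 0.77. This r includes ADLIB Period 1 replicates 1 and 8, which stood far above their group in that gene, and their part in it was not tested. ENSBTAG00000000061 was in none of the 7 blocks, and its r with ENSBTAG00000013641 was 0.21.

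**Figure D5:**
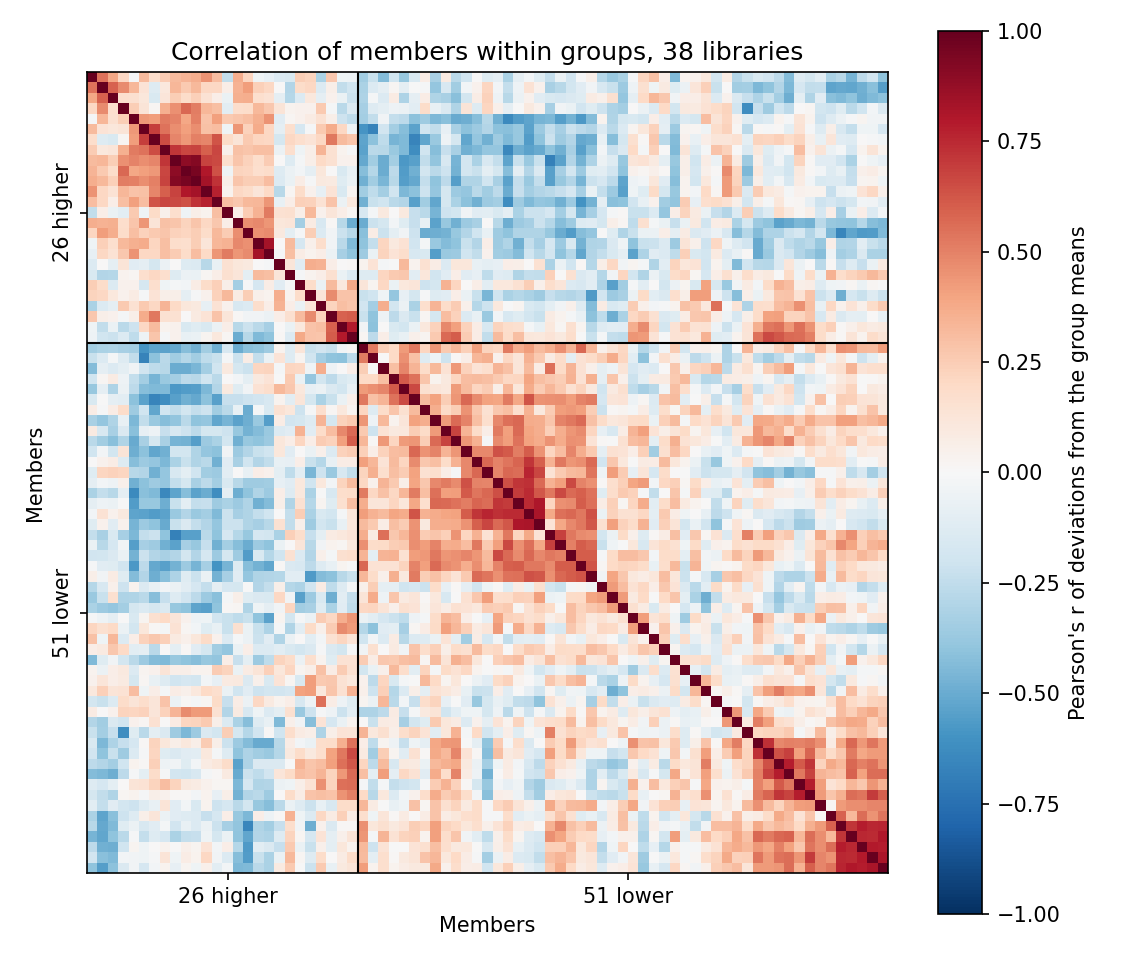
Pearson's r between members over the 38 libraries, computed on deviations from the group means, with the 26 higher members first and the 51 lower members after them and similar members placed side by side. Small red squares on the diagonal are the blocks of 3 to 8 members, and the areas between the directions are mostly pale blue, with a median of -0.13.

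The 2 averages per library, taken as deviations from their group means, ran against each other in ADLIB bulls and showed little relation in RES bulls. Libraries that moved the group means used for the selection also enter these deviations. Part of any relation between the 2 averages therefore comes with the selection. Pearson's r was -0.59 (Spearman's rho -0.47) over the 19 ADLIB libraries and -0.03 (rho -0.03) over the 19 RES libraries, given as a description, and the difference between the diets was not tested. Without the 2 libraries farthest out, r was -0.41 in ADLIB and 0.08 in RES. With log2 read depth, r was -0.35 for the higher and 0.23 for the lower average in ADLIB, and 0.28 and -0.26 in RES.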

How the data were processed

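Rumen papillae RNA of 38 bulls was sequenced as single-end mRNA libraries. As the study's methods state, the authors trimmed reads, aligned them to UMD 3.1, counted them per Ensembl gene with HTSeq and removed genes with low counts. The deposited values are signal values (CPM) on library sizes scaled by edgeR's TMM factors, set in each period separately. Dividing by the value of 1 read gave whole reads (within 0.01 of a read) in all libraries. Groups came from the labels.

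Members and gene lists were chosen with earlier results of these data known. Means used log2(value + 1). Tests were limma 3.58.1 with trend, on log2(CPM + 1) after TMM and filterByExpr, two-sided, Benjamini-Hochberg adjusted over all genes; edgeR 4.0.16 and DESeq2 1.42.0 on the recovered reads were alternatives. Fits were tested on simulated data. Each replicate is another bull per the labels, and no 2 libraries were copies (at least 12540 genes differed). Of 12802 identifiers, 0 could be paired with a symbol, so gene lists, cell type markers, promoter motifs and sequences gave no result, and 2 members a direction, those with the largest smaller shift, are named in place of up to 15.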

Additional observations from a re-analysis of the deposited data

Results flagged for a closer look

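Among 24 combinations of a group with a named member or with the mean level of a direction, 2 held a library whose gap to its nearest neighbour took up more of the group's range than Dixon's 95% limit allows; chance gives such a gap in about 1 in 20 groups. For ENSBTAG00000000061 in RES Period 2, replicate 8 was lowest, at 10.4 CPM against 17.2 CPM for the next library, and on the log2 scale the gap was 0.506 of the range. For the mean log2 level of the lower members in RES Period 1, replicate 6 was highest, at 4.51 against 4.17 for the next library, a gap of 0.574 of the range. No member's change over time differed between the diets at an adjusted p under 0.05 (limma, 0 of 77, beside 0.0239% of all genes). At an unadjusted p under 0.05 in limma there was 1 of 77, beside 4.78%. The rule used the means behind this test and required both diets to move the same way, so these counts are a description.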

How the results depend on the processing

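The number of members depended on how the rule was applied, and in each case the cause was not tested. With a pseudocount of 0.1 it gave 44 higher and 84 lower genes, with group medians 61 higher and 71 lower, which held 17 of 26 and 25 of 51 members, and with a threshold of 0.5 on each shift 9 higher and 25 lower. Leaving out 1 library at a time gave 17 to 44 higher and 39 to 64 lower, and leaving out ADLIB Period 1 replicates 1 and 8 together gave 14 higher. Of the members called over time in RES bulls, limma had 21, DESeq2 35, the fit with the library digit 9, and removals of 1 library 13 to 25, with 13 without RES Period 1 replicate 7 and without RES Period 2 replicates 3 and 10. For the library digit, DESeq2 called 1 member and removals gave 0 to 1. TMM over all 38 libraries, no TMM factor, RLE and a filter on low values left counts within 1.5 times, and all 77 members had their directions in both diets under each of them. The shifts of the 4 named members kept their sign under all alternatives, though that of ENSBTAG00000016026 in ADLIB was -0.24 without replicates 1 and 8.

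Over all genes, the 204 calls over time in RES became 453 with DESeq2, 103 with the digit and 136 to 286 with 1 library left out. There were 137 without RES Period 1 replicate 7, 137 without RES Period 2 replicate 3 and 149 without RES Period 2 replicate 10. The calls among members and among all genes thus fell together in these removals. The 1 call between diets in Period 1 became 62 with DESeq2, 2 with the digit and up to 13 with 1 library left out (13 without ADLIB Period 1 replicate 4, 5 without RES Period 1 replicate 8). The 0 calls over time in ADLIB became 1 with DESeq2 and without ADLIB Period 1 replicate 7 or ADLIB Period 2 replicate 1. The 3 calls on a different change became 0 with the digit, 1 with a pseudocount of 0.1 and 0 to 4 with 1 library left out.

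Same-numbered libraries, which come from different bulls, correlated at -0.0009 to 0.121 on average. The highest average was that between the diets in Period 1, against -0.014 for libraries of other numbers. The pairs behind it ran from -0.24 to 0.71. There 5 of 9 same-numbered pairs were above 0.1, and 1 of 9 libraries correlated best with its own number. Whether the numbers mark a pairing was not tested. With the replicate block, 14 members were called over time in RES (119 genes in all) and 0 in the other comparisons; the block gave 2 genes for the diets in Period 1, 1 for a different change and 16 for the digit, which had 26.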
